A study of Homo sapiens with 6 samples.

Results

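The 38 genes described here encode the folding and quality control machinery of the endoplasmic reticulum (ER) and the sensors that watch over it. They were taken by gene symbol from a fixed list of names, drawn up with earlier results of these data known. Each name matched 1 of the 60564 rows of the deposited count table. The cells were CAL27, an established line from a human squamous cell carcinoma of the tongue. In CNTNAP2-203 OE (overexpression), the cells had been infected with a lentivirus that carries CNTNAP2-203, a transcript of the neurexin family gene CNTNAP2. The control cells, whose genotype is labelled WT, had received the control vector, which the sample descriptions name EGFP. Both groups carry a lentiviral integration and were kept under 5 μg/ml puromycin for 2 weeks, and each group holds 3 RNA sequencing libraries, replicates 1, 2 and 3. The labels call the cells stable lines. They do not say whether a line is a clone or a pool, which promoter drives the insert, or whether the libraries of a group come from separate cultures. The spread behind each p-value is therefore the spread between libraries and may be technical.

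Secreted and membrane proteins enter the ER unfolded. Inside, the HSP70 chaperone BiP (HSPA5) and the HSP90 chaperone GRP94 (HSP90B1) bind them with the help of J proteins, calnexin and calreticulin hold their N-glycans, and protein disulfide isomerases form their disulfide bonds. Proteins that fail to fold are pulled back to the cytosol and degraded, a route called ER-associated degradation (ERAD). The sensors IRE1 (ERN1), PERK (EIF2AK3) and ATF6 detect unfolded proteins and start the unfolded protein response, in which IRE1 splices the mRNA of XBP1, and in which XBP1 and ATF6 switch on chaperone and ERAD genes while PERK slows translation and raises ATF4. Squamous carcinoma cells secrete and display many glycoproteins and use this machinery at all times.

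The libraries held 36843190 to 42412703 counts. CNTNAP2 had 119280 to 156055 counts in the 3 CNTNAP2-203 OE libraries and 0, 3 and 4 counts in the control libraries. All 10 squamous epithelial markers examined were expressed, with summed levels of 15200 to 18600 CPM (counts relative to library size, with TMM scaling) in CNTNAP2-203 OE and 15300 to 17100 CPM in control. Of 6 markers listed for each of 4 other cell types, 4 fibroblast, 3 leukocyte, 2 endothelial and 1 plasma cell gene passed the count filter, and none was called. Their summed levels overlapped between the groups. The fibroblast list held 40 to 42.8 CPM in CNTNAP2-203 OE and 41 to 46 CPM in control, mostly COL1A1 and LUM. The leukocyte list held 54.8 to 62.3 CPM in CNTNAP2-203 OE and 50.7 to 69.4 CPM in control, mostly CD68 and CD14, while PTPRC averaged 0.0236 CPM in CNTNAP2-203 OE and 0.0422 CPM in control. The endothelial list held 8 to 11.5 CPM in CNTNAP2-203 OE and 6.23 to 9.66 CPM in control, mostly CDH5, with KDR at 0 counts in all libraries. The plasma cell list held 594 to 729 CPM in CNTNAP2-203 OE and 656 to 676 CPM in control, nearly all SDC1, which epithelial cells also express, with TNFRSF17 and JCHAIN at 0 counts. CNTNAP2-203 OE replicate 3 stood apart. A chi-square statistic of the counts per degree of freedom was 82.6 and 89.5 between it and the other libraries of its group, and 33.1 to 38.9 between the other libraries of a group. In this library, short genes were high and long genes low: relative to the mean of the controls, its median log2 deviation was 0.20 among the tested genes in the lowest quartile of exon length and -0.21 among those in the highest, against 0.06 and -0.03 in CNTNAP2-203 OE replicate 1. In bulk RNA, a lower level in each cell and fewer cells that express a gene cannot be told apart.

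The ER genes did not move as a block in CNTNAP2-203 OE. Of the 37 tested members, 3 fell and none rose (edgeR quasi-likelihood test, adjusted p under 0.05 over 18786 genes): the lectin chaperone gene CLGN, the IRE1 gene ERN1 and the J protein gene DNAJB9. DERL3 had no count in any library and was not tested. Over all tested genes, 1.39% were called, with 0.596% lower and 0.798% higher. The members' 8.11% lower, which is 3 genes of 37, lies above that share, and their share of rises, at 0, does not. The members were chosen with earlier results of these data known, so these shares add no independent evidence. By unadjusted p under 0.05, 5 members were higher and 10 lower (40.5% of the members in all), against 9.41% higher and 7.84% lower, 17.2% in all, of the tested genes. The 3 CNTNAP2-203 OE libraries lay above all controls for 7 members and below all controls for 11, which is 18.9% and 29.7% of the members, against 13.7% and 12.8% of all tested genes (26.5% in either direction). The median log2 fold change was -0.01 over the members and 0.00 over all tested genes, with 18 members positive and 19 negative. The lowest count of any tested member in any library was 39, for CLGN in CNTNAP2-203 OE replicate 3, so every tested member was above the count filter in both groups.

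The medians of the members differed by role. The 3 sensor genes and XBP1 were below the controls in every CNTNAP2-203 OE library, as were 12.8% of all tested genes. Of these 4 genes only ERN1 passed the test. The median log2 fold change of the 4 was -0.46, and ERN1, EIF2AK3, ATF6 and XBP1 were at -0.79, -0.37, -0.27 and -0.55. The ERAD genes had a median of -0.19, with 6 of 8 negative, and the J proteins one of -0.20, with 3 of 4 negative. The HSP70 and HSP90 system, listed here with SDF2L1, MANF and CRELD1, had a median of 0.19, with 5 of 7 positive. Its chaperones HSPA5 and HSP90B1 were at -0.18 and 0.19, and its exchange factors HYOU1 and SIL1 at -0.01 and 0.04. The disulfide enzymes had a median of 0.06, with 8 of 11 positive. Without CNTNAP2-203 OE replicate 3, the disulfide enzymes had a median of -0.05, with 4 above 0, PDIA3 at 0.00 and 6 below 0, and the HSP70 and HSP90 system one of 0.11, with 5 of 7 above 0. In the same fit the 3 sensor genes and XBP1, 6 of 8 ERAD genes and 3 of 4 J proteins were below 0. These medians describe the members and were not tested. The calls depended on the libraries used: without CNTNAP2-203 OE replicate 3, all 3 falls held and the calreticulin gene CALR also passed as higher, and without any 1 of the other 5 libraries no member passed.

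**Figure D1:**
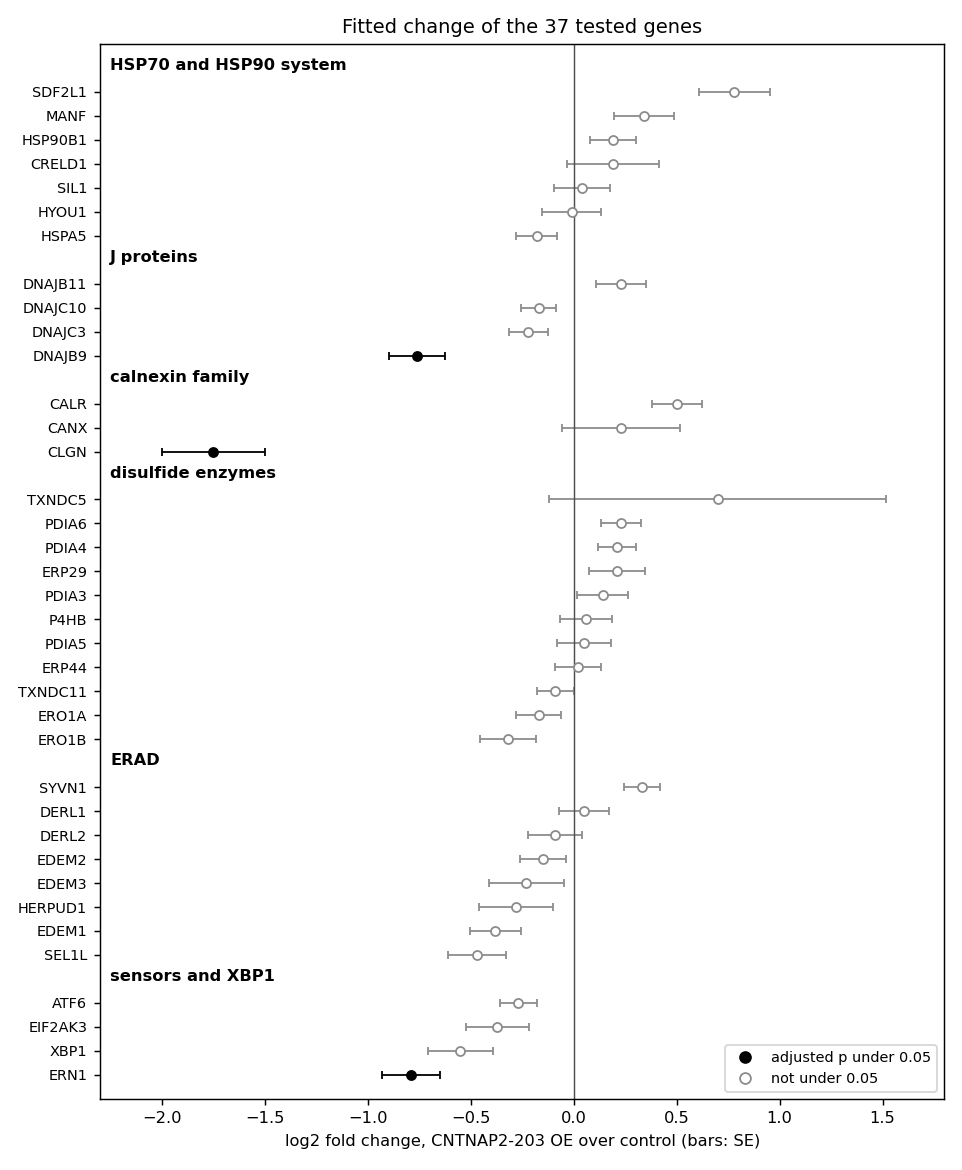
Fitted log2 fold change of CNTNAP2-203 OE over control for the 37 tested genes, grouped by role, with bars for the SE and filled points for an adjusted p under 0.05. CLGN (-1.75), ERN1 (-0.79) and DNAJB9 (-0.76) are the filled points, and the sensor genes and XBP1 at the bottom all lie left of 0.

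Promoters of these genes are known for short DNA elements that ATF6, XBP1 and ATF4 bind. RefSeq promoters (GRCh38.p14, 250 bases before to 50 after a transcript start) were found for 35 of the 38 members by symbol, all but PDIA3, DERL1 and DERL3, with 43 windows in all because some genes have several starts. The ER stress response element, ERSE, here CCAAT and CCACG with 9 bases of any kind between them, searched like all elements on both strands, was in the window of 7 members: HSPA5, HSP90B1, CALR, CANX, PDIA6, ERO1B and XBP1. It was in 0.0769% of all 35116 promoter windows. Here and below, members are counted by gene and the background by window, with the members' windows included. The units are therefore unlike. The related ERSE-II, ATTGG and CCACG with any 1 base between them, was in HERPUD1, HYOU1 and SDF2L1 and in 0.0541% of all windows. The XBP1 element TGACGTGG was in DNAJC10, HYOU1, TXNDC11 and TXNDC5 and in 0.729% of all. The ATF4-type element TGATGNAA was in HERPUD1 and in 3.62% of all. The first pair of elements contains CCACG, and the third contains its reverse complement. CCACG alone was in 25 members and in 38.1% of all windows. Of the genes called lower, DNAJB9 held CCACG, while CLGN and ERN1 held none of these letters in their windows, which says nothing about the factors.

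The windows below show elements shared by genes whose fitted differences had different signs. Of these genes only DNAJB9 was called. Capitals mark ERSE in HSPA5, CALR and XBP1 (1 of its windows), ERSE-II in SDF2L1, the ATF4-type element followed by ERSE-II in HERPUD1, and CCACG or its reverse complement in DNAJB9.
HSPA5, chr9:125241294-125241593, minus strand: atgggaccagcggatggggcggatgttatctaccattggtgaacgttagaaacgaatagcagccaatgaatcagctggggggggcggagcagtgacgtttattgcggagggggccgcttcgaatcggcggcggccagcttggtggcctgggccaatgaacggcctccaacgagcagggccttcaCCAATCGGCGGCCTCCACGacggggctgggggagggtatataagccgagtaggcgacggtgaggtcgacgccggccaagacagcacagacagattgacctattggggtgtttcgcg
CALR, chr19:12938359-12938658, plus strand: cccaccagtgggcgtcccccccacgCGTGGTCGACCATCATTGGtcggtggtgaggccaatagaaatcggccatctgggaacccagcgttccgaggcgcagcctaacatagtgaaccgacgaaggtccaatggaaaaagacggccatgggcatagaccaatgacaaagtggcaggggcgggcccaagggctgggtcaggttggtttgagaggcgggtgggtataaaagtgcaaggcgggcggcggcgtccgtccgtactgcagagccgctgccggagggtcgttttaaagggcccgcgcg
XBP1, chr22:28800520-28800819, minus strand: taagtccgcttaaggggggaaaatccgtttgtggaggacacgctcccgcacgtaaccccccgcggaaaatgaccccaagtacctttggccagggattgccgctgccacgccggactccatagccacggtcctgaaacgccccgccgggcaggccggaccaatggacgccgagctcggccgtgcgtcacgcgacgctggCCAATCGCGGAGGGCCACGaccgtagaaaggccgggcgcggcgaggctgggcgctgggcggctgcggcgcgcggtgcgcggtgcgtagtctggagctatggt
SDF2L1, chr22:21642052-21642351, plus strand: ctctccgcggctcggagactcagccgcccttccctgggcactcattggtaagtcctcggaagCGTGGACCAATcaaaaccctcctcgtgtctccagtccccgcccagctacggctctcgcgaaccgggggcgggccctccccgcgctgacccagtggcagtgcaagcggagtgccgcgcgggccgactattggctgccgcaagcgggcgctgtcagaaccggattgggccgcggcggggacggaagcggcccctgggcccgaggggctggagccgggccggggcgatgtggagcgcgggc
HERPUD1, chr16:56931892-56932191, plus strand: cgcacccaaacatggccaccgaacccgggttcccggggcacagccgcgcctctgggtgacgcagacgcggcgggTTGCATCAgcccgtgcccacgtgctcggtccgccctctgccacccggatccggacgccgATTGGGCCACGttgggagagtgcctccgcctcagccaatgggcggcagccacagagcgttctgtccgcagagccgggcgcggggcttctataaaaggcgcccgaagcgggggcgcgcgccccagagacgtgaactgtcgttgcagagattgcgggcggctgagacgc
DNAJB9, chr7:108569624-108569923, plus strand: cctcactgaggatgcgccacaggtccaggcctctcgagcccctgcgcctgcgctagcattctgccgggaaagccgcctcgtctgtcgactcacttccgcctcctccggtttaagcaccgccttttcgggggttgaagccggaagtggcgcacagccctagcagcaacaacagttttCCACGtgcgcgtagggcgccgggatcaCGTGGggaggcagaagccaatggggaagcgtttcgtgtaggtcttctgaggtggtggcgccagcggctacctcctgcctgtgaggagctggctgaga
CALR and SDF2L1, with these elements, were above the controls in every CNTNAP2-203 OE library, and XBP1, with ERSE in the same orientation as HSPA5, was below them in every one. The 10 tested members with ERSE or ERSE-II had log2 fold changes of -0.55 to 0.78 (median 0.09, 5 positive and 5 negative), and none was called. The 25 other tested members with a promoter window had a median of -0.09, from -1.75 to 0.70, and held the 3 calls. A match is a run of letters and was not tested as a binding site.

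Among the sensors, ERN1 was lower in every CNTNAP2-203 OE library. ERN1 encodes IRE1, the kinase and RNase that splices XBP1 mRNA (chr17:64039142-64130819, minus strand, GENCODE 29 on GRCh38). It was at 32.1, 29.8 and 23.4 CPM in CNTNAP2-203 OE replicates 1, 2 and 3, against 47.3, 53.6 and 46.7 CPM in control replicates 1, 2 and 3. The groups did not overlap, and the means were 28.4 ± 4.50 CPM in CNTNAP2-203 OE and 49.2 ± 3.81 CPM in control (SD, n = 3 each), a log2 fold change of -0.79 (SE 0.139, adjusted p = 0.0445). ERN1 has exons of 10864 bases and was lowest in CNTNAP2-203 OE replicate 3, the library that was low in long genes. Its log2 fold change was -0.67 without that library (adjusted p = 0.0232) and -0.69 with the length trend of each library removed (adjusted p = 0.018).

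XBP1, the transcription factor made from the spliced mRNA, was at 98.1, 125 and 108 CPM in the CNTNAP2-203 OE libraries (here and below in the order of replicates 1, 2 and 3), against 154, 197 and 135 CPM in control. Each CNTNAP2-203 OE library was below each control, though the highest of them, at 125 CPM, lay near the lowest control, at 135 CPM. The log2 fold change of -0.55 (SE 0.159) did not pass (adjusted p = 0.141). The counts are per gene, so spliced and unspliced XBP1 are not told apart. ATF6, the membrane-bound factor that is cut in the Golgi under stress, was at 58.4, 56.8 and 55.5 CPM in CNTNAP2-203 OE and at 65.1, 69.9 and 70.7 CPM in control. The groups were narrow and apart, and the difference was small (log2 fold change -0.27, 95% interval -0.48 to -0.06, adjusted p = 0.187). EIF2AK3, which encodes PERK, was at 20.5, 24.6 and 16.9 CPM in CNTNAP2-203 OE and at 25, 27.8 and 27.3 CPM in control, where CNTNAP2-203 OE replicate 2 nearly met control replicate 1 (log2 fold change -0.37, adjusted p = 0.273). ERN1 and ATF6 share no exon bases with another annotated gene, and EIF2AK3 shares 14.37% of its exon bases with AC104134.1 on the other strand, which had at most 19 counts in a library.

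Of the J proteins, which hand substrates to BiP and stimulate its ATPase, DNAJB9 fell. DNAJB9 encodes ERdj4, a product of XBP1 activity that is also known to hold IRE1 inactive (chr7:108569568-108574850, plus strand). It was at 17.1, 17.2 and 14.5 CPM in CNTNAP2-203 OE and at 24.6, 30.8 and 27.4 CPM in control. The highest CNTNAP2-203 OE library was below the lowest control, and the log2 fold change was -0.76 (SE 0.135, adjusted p = 0.0451). Its counts were 726, 712 and 508 in CNTNAP2-203 OE and 977, 1215 and 1158 in control. It shares 6.45% of its exon bases with THAP5 and 3.49% with PNPLA8 on the other strand, and neither passed the test (log2 fold changes 0.13 and -0.17, adjusted p = 0.6345 and 0.5275). DNAJC3, the PERK inhibitor p58IPK, was at 68.3, 70.0 and 63.6 CPM in CNTNAP2-203 OE and at 77.8, 82.4 and 74.9 CPM in control (log2 fold change -0.22, adjusted p = 0.283). DNAJC10, a J protein that reduces disulfides of ERAD substrates, was at 115, 116 and 116 CPM in CNTNAP2-203 OE and at 128, 127 and 134 CPM in control (-0.17, adjusted p = 0.362). With the length trend removed this difference was 0.04, and DNAJC10 has the longest exons of the members (21835 bases). DNAJB11, the J protein ERdj3 that is secreted with its substrates, averaged 163 ± 24.0 CPM in CNTNAP2-203 OE and 139 ± 6.64 CPM in control (SD, n = 3 each). Its difference of 0.23 on the log2 scale did not pass (adjusted p = 0.379).

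Within the calnexin family, CLGN fell, and CALR and CANX did not pass the test. CLGN encodes calmegin, a lectin chaperone best known from mouse testis, where sperm proteins need it (chr4:140388455-140427968, minus strand). It was at 1.65, 1.09 and 1.11 CPM in CNTNAP2-203 OE and at 3.55, 5.09 and 4.40 CPM in control. Each CNTNAP2-203 OE library was below each control (log2 fold change -1.75, SE 0.250, adjusted p = 0.0253). This was the largest change among the members and rests on low counts, which were 70, 45 and 39 in CNTNAP2-203 OE and 141, 201 and 186 in control. On the log2(FPKM + 1) scale, where the added 1 shrinks the change of a low gene, the difference was -0.73 (limma-trend, adjusted p = 0.0388). CLGN shares no exon bases with another annotated gene. CALR, which encodes calreticulin, was at 1210, 1160 and 1510 CPM in CNTNAP2-203 OE and at 932, 873 and 931 CPM in control. The groups did not overlap and CNTNAP2-203 OE replicate 3 was the highest. The log2 fold change of 0.50 (SE 0.121, adjusted p = 0.097) did not pass. Without replicate 3 the difference was smaller, at 0.37, and passed (adjusted p = 0.0369). CANX, which encodes the membrane-bound calnexin, was at 1070, 1010 and 837 CPM in CNTNAP2-203 OE and at 482, 1050 and 958 CPM in control. Control replicate 1 was far below the other 5 libraries. The log2 fold change was 0.23 (SE 0.286, adjusted p = 0.727), and without control replicate 1 it was -0.05.

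**Figure D2:**
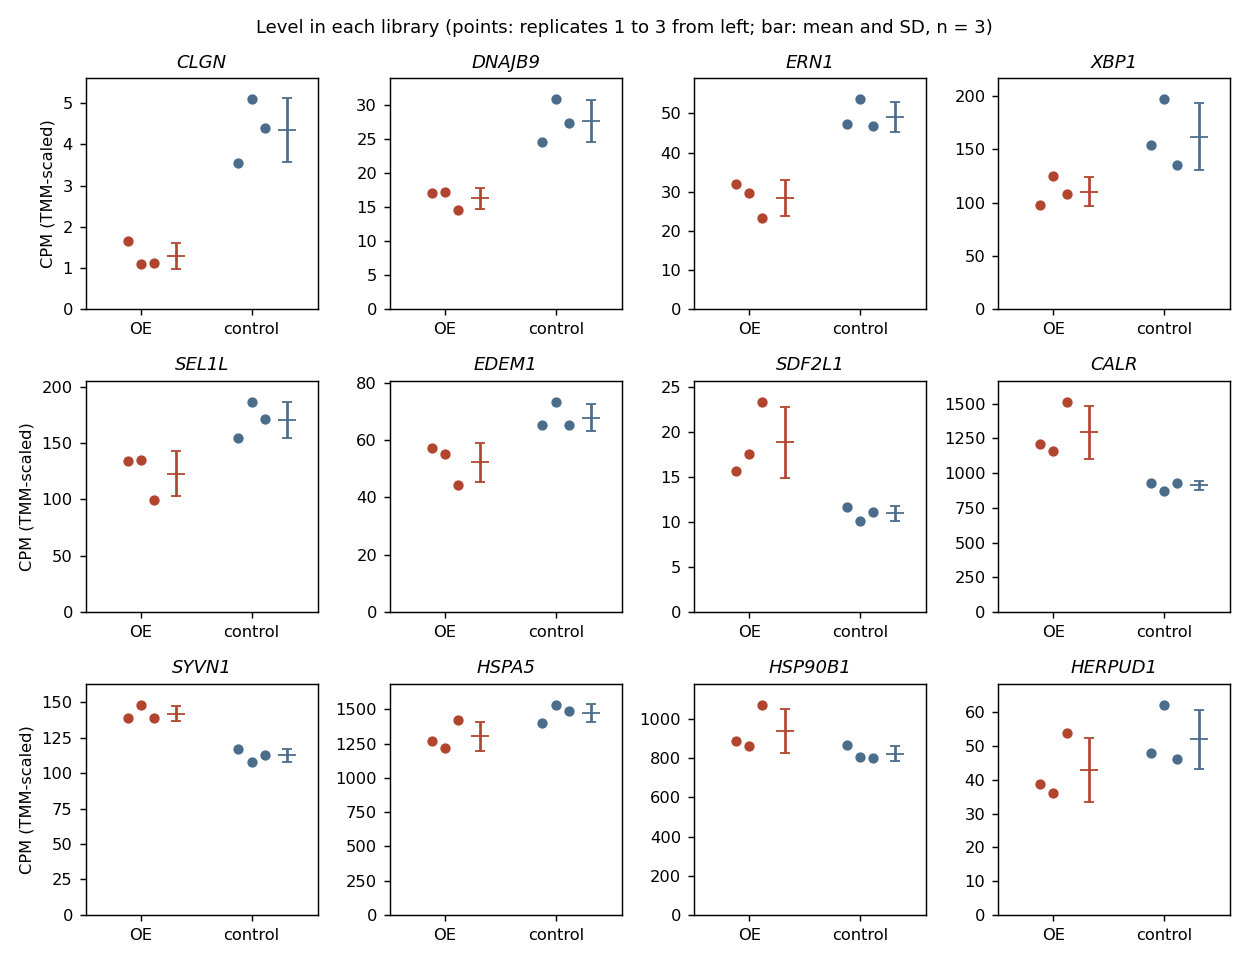
Level of 12 members in CPM in each library, with CNTNAP2-203 OE left of control, points for replicates 1 to 3 and bars for mean and SD (n = 3). The groups are apart for CLGN, DNAJB9, ERN1, XBP1, SEL1L, EDEM1, SDF2L1, CALR and SYVN1, and overlap for HSPA5, HSP90B1 and HERPUD1.

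In the HSP70 and HSP90 system, listed here with SDF2L1, MANF and CRELD1, 5 of 7 genes had higher means in CNTNAP2-203 OE and none passed. HSPA5 encodes BiP, the gene most used as a readout of ER stress. It was at 1270, 1220 and 1420 CPM in CNTNAP2-203 OE, against 1400, 1530 and 1490 CPM in control. Replicate 3 of CNTNAP2-203 OE lay among the controls. The log2 fold change was -0.18 with a 95% interval of -0.41 to 0.05 (adjusted p = 0.401), so a fall or a small rise are both within the error. HSP90B1, GRP94, was at 885, 863 and 1070 CPM in CNTNAP2-203 OE and at 865, 804 and 799 CPM in control (0.19, 95% interval -0.07 to 0.45, adjusted p = 0.423).

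SDF2L1, a partner of DNAJB11 in the ER lumen, had the largest positive log2 fold change of the members. Its values were 15.7, 17.6 and 23.3 CPM in CNTNAP2-203 OE and 11.7, 10.1 and 11.1 CPM in control, and the groups did not overlap. The log2 fold change of 0.78 (SE 0.172, 95% interval 0.39 to 1.18) did not pass (adjusted p = 0.0779). SDF2L1 has the shortest exons of the members, 1099 bases, and was highest in CNTNAP2-203 OE replicate 3, which was high in short genes. Without that library the value was 0.60 (adjusted p = 0.06), and with the length trend removed it was 0.71 (adjusted p = 0.0438). MANF, a secreted protein that binds BiP and is induced by ER stress, was at 40.1, 41.8 and 56.0 CPM in CNTNAP2-203 OE and at 38.5, 33.8 and 36.7 CPM in control (log2 fold change 0.34, adjusted p = 0.285), and its difference was 0.17 without replicate 3. The BiP exchange factors HYOU1 and SIL1 averaged 127 ± 25.2 and 29.3 ± 4.33 CPM in CNTNAP2-203 OE and 128 ± 2.34 and 28.5 ± 2.00 CPM in control. CRELD1, a membrane protein with EGF-like repeats, was the lowest in this role at 2.24 ± 0.335 CPM in CNTNAP2-203 OE and 1.96 ± 0.288 CPM in control.

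Of the 8 tested ERAD genes none passed. In the SEL1L-SYVN1 ubiquitin ligase, the fitted differences of SYVN1 and SEL1L had opposite signs. Whether these genes differed from each other was not tested. SYVN1 encodes HRD1, the ligase itself. It was at 139, 148 and 139 CPM in CNTNAP2-203 OE, against 117, 108 and 113 CPM in control. The groups were narrow and apart, and the log2 fold change of 0.33 (SE 0.0879) did not pass (adjusted p = 0.118). SYVN1 shares 7.24% of its exon bases with the abundant FAU on the same strand and 6.48% with MRPL49 on the other. FAU had a log2 fold change of 0.43 (SE 0.138, adjusted p = 0.177) and MRPL49 one of -1.11 (SE 0.569, adjusted p = 0.391). The part of either gene in the SYVN1 value was not tested. SEL1L, the adaptor that stabilises HRD1, was at 134, 135 and 99.5 CPM in CNTNAP2-203 OE, against 154, 186 and 171 CPM in control. All 3 CNTNAP2-203 OE libraries were below the controls and replicate 3 was lowest. The log2 fold change was -0.47 (SE 0.141, adjusted p = 0.153), and it was -0.35 without replicate 3.

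EDEM1, which with EDEM2 and EDEM3 trims mannose from misfolded glycoproteins, was at 57.2, 55.1 and 44.4 CPM in CNTNAP2-203 OE and at 65.2, 73.2 and 65.2 CPM in control (log2 fold change -0.38, SE 0.123, adjusted p = 0.178). Here too the groups did not overlap. EDEM2 averaged 47.8 ± 4.62 CPM in CNTNAP2-203 OE and 53.1 ± 3.78 CPM in control. EDEM3 was at 42.3, 48.3 and 28.5 CPM in CNTNAP2-203 OE and at 45.7, 46.0 and 48.0 CPM in control, so its lower mean came from replicate 3. Without it the log2 fold change of EDEM3 was -0.04. HERPUD1, a scaffold of the ERAD complex and a strong stress-induced gene, was at 38.8, 36.2 and 53.9 CPM in CNTNAP2-203 OE and at 47.9, 62.1 and 46.1 CPM in control, with overlapping groups (log2 fold change -0.28, adjusted p = 0.472). The derlins, membrane proteins of the retrotranslocation channel, averaged 106 ± 10.5 CPM for DERL1 and 30.9 ± 3.01 CPM for DERL2 in CNTNAP2-203 OE, and 103 ± 11.7 and 32.8 ± 4.02 CPM in control. DERL3 had 0 counts in all 6 libraries, which allows up to 3 counts in each (counting error only). It shares 77.0% of its exon bases with SMARCB1 on the other strand, and the labels do not say how reads of shared bases were assigned.

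None of the 11 disulfide enzymes passed, and their lean to positive differences rested on CNTNAP2-203 OE replicate 3, without which 4 were above 0. PDIA6, an isomerase that also acts on IRE1, was at 434, 451 and 508 CPM in CNTNAP2-203 OE and at 392, 397 and 403 CPM in control (log2 fold change 0.23, SE 0.0966, adjusted p = 0.286). PDIA4 was at 397, 418 and 432 CPM in CNTNAP2-203 OE and at 383, 346 and 347 CPM in control (0.21, SE 0.0932, adjusted p = 0.294). In both genes the groups were apart by a margin smaller than the range of the CNTNAP2-203 OE libraries. PDIA3, the partner of calnexin and calreticulin, averaged 626 ± 94.5 CPM in CNTNAP2-203 OE and 569 ± 34.7 CPM in control. P4HB, the founding isomerase and a subunit of prolyl 4-hydroxylase, averaged 687 ± 94.2 CPM in CNTNAP2-203 OE and 660 ± 54.7 CPM in control. The log2 fold changes of PDIA5, ERP44, which retains ERO1 in the ER, TXNDC11 and ERP29, a redox-inactive relative, ran from -0.09 to 0.21. The ERO1 oxidases, which recharge the isomerases, were on the negative side. ERO1A was at 270, 258 and 320 CPM in CNTNAP2-203 OE and at 305, 330 and 321 CPM in control, with overlap in replicate 3 (-0.17, adjusted p = 0.456). ERO1B was at 11.1, 11.7 and 10.6 CPM in CNTNAP2-203 OE and at 12.2, 14.8 and 14.8 CPM in control, without overlap (-0.32, SE 0.136, adjusted p = 0.279).

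TXNDC5, an isomerase abundant in secretory cells, had a value in 1 library that depends on how reads were assigned. It had 8045, 8661 and 6982 counts in CNTNAP2-203 OE and 6674, 7258 and 712 counts in control. The readthrough gene BLOC1S5-TXNDC5 holds 60.59% of the exon bases of TXNDC5 on the same strand. It had 0 counts in all libraries but control replicate 3, where it had 6588. TXNDC5 alone had a log2 fold change of 0.70 with a wide error (SE 0.818, adjusted p = 0.707). The sum of both genes was 190, 210 and 200 CPM in CNTNAP2-203 OE and 168, 184 and 173 CPM in control, and its log2 fold change was 0.19 (SE 0.0912, adjusted p = 0.336). This sum was formed after the counts were seen. The low CANX count of control replicate 1, 19101 against 29291 to 45400 in the other libraries, had no such partner among the genes that share its exons, since CBY3 had at most 3 counts. Control replicate 1 is also the library whose reverse-read file was missing from the submission, and any part of this in the CANX value was not tested.

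**Figure D3:**
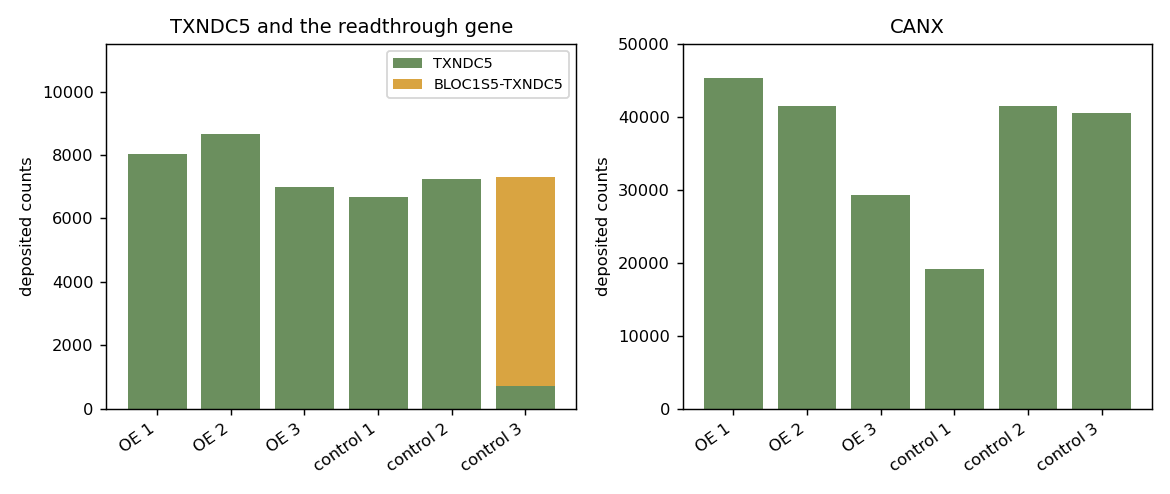
Deposited counts for TXNDC5 with BLOC1S5-TXNDC5 stacked on it (left) and for CANX (right) in the 6 libraries, CNTNAP2-203 OE left of control. In control replicate 3, 6588 counts stand under BLOC1S5-TXNDC5 and 712 under TXNDC5, and CANX is lowest in control replicate 1.

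The authors' FPKM, which divide by transcript length, allow levels to be compared between genes. The most abundant members were the luminal chaperones. CALR averaged 382 ± 42.0 FPKM in CNTNAP2-203 OE and 279 ± 9.01 FPKM in control, and HSPA5 266 ± 12.4 FPKM in CNTNAP2-203 OE and 311 ± 15.8 FPKM in control (SD, n = 3 each). CALR was thus above HSPA5 in every CNTNAP2-203 OE library (353 to 430 against 256 to 280 FPKM) and below it in every control (269 to 285 against 295 to 326 FPKM). HSP90B1 came next in both groups, at 161 ± 14.2 FPKM in CNTNAP2-203 OE and 146 ± 6.32 FPKM in control, and PDIA3, P4HB, CANX, PDIA4 and PDIA6 followed at means of 80.5 to 119 FPKM. XBP1 was at 29.4 ± 4.01 FPKM in CNTNAP2-203 OE and 44.4 ± 9.0 FPKM in control, well above the 3 sensors themselves. ATF6 was at 5.82 ± 0.320 FPKM in CNTNAP2-203 OE and 7.22 ± 0.323 FPKM in control, EIF2AK3 at 3.05 ± 0.659 and 4.04 ± 0.238 FPKM, and ERN1 at 2.11 ± 0.392 and 3.74 ± 0.311 FPKM in the same order. CLGN, at 0.364 ± 0.0994 FPKM in CNTNAP2-203 OE and 1.27 ± 0.229 FPKM in control, and CRELD1, at 0.455 ± 0.0803 and 0.404 ± 0.0675 FPKM, were the lowest of the detected members. The 38 genes together took 0.864% to 0.922% of all counts in the CNTNAP2-203 OE libraries and 0.829% to 0.885% in the control libraries. Without TXNDC5 and CANX, whose counts were low in 1 control each, the shares were 0.749%, 0.741% and 0.824% in CNTNAP2-203 OE and 0.763%, 0.759% and 0.748% in control, so that CNTNAP2-203 OE replicate 3 alone lay above the controls.

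**Figure D4:**
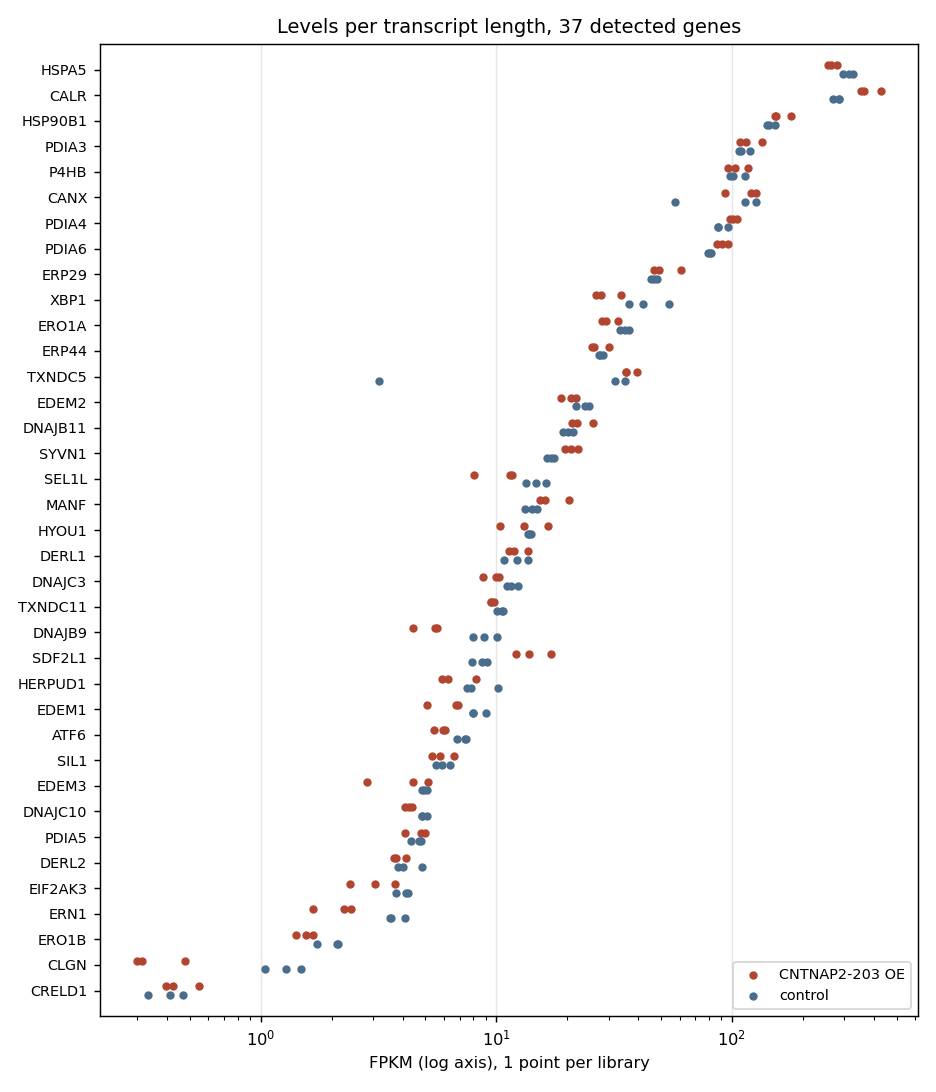
FPKM on a log axis for the 37 detected genes, 1 point per library, ordered by the control mean, with CNTNAP2-203 OE drawn above control in each row. CALR and HSPA5 lead, ERN1, ERO1B, CLGN and CRELD1 are lowest, and single low controls of TXNDC5 (3.17) and CANX (57.3) stand out.

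CNTNAP2-203 OE replicate 3 separated the members by length as it did other genes. Its log2 CPM minus the mean of replicates 1 and 2 ran from -0.67 in EDEM3 and -0.43 in SEL1L to 0.49 in SDF2L1 and 0.52 in HERPUD1. Across the 37 members, which share these libraries, Spearman's rho between exon length and this deviation was -0.50, and it was -0.27 across 18522 tested genes with an annotated length. DNAJB9 and CLGN have exons of 2837 and 3127 bases, longer than those in the lowest quartile of the tested genes (up to 2177 bases). The deviations of DNAJB9 and CLGN were -0.24 and -0.27. DNAJB9 was lowest in replicate 3. CLGN was alike in replicates 2 and 3, at 1.09 and 1.11 CPM, and higher in replicate 1, at 1.65 CPM. Several uncalled differences moved by more than 1.5 times without CNTNAP2-203 OE replicate 3. On the log2 scale they were then 0.08 for HSP90B1, 0.10 for DNAJB11, 0.00 for PDIA3, 0.15 for PDIA6 and 0.04 for ERP29, all smaller than with it, and -0.27 for ERO1A, -0.23 for EDEM2, -0.48 for HERPUD1 and -0.17 for DERL2, all further below 0. Without replicate 3, 32 of the 37 members kept the sign of their log2 fold change. The exceptions were HYOU1, SIL1, PDIA5, P4HB and ERP44, which were between -0.09 and 0.11 in that fit.

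**Figure D5:**
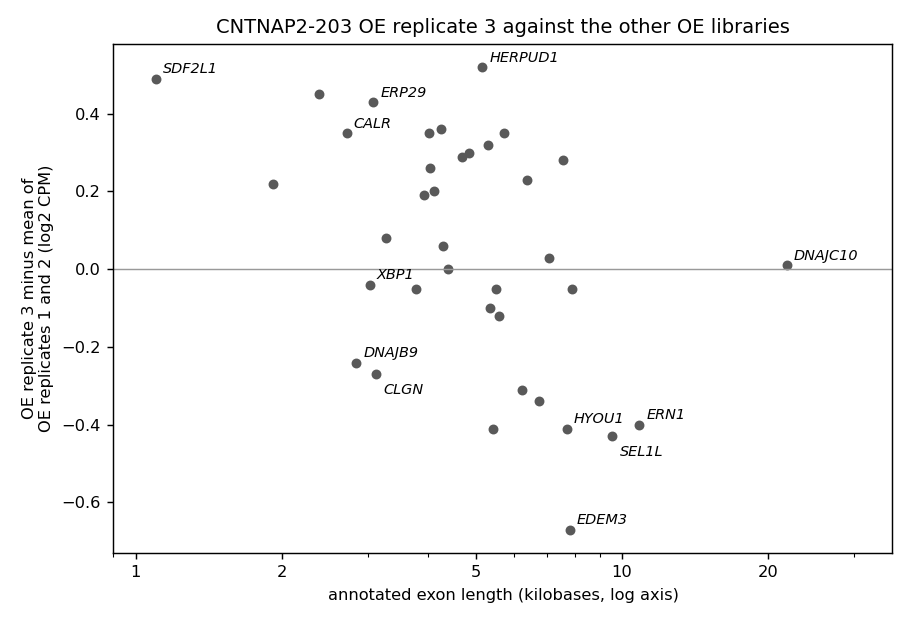
Log2 CPM of CNTNAP2-203 OE replicate 3 minus the mean of CNTNAP2-203 OE replicates 1 and 2, against annotated exon length on a log axis, 1 point for each of 37 genes. SDF2L1, with the shortest exons, is high at 0.49, and long genes such as EDEM3 (-0.67), SEL1L (-0.43) and ERN1 (-0.40) are low.

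Other genes of the ER and of its stress response were described from 10 further lists, with 154 genes, of which 150 were tested. The calls lay in the PERK and ATF4 arm. Of its 12 genes, all tested, 3 fell and none rose, against 0.596% lower and 0.798% higher of all tested genes. Each of the 12 fold changes was below 0 on the log2 scale, with a median of -0.56. Of all 18786 tested genes, 9471 were below 0. ATF4 itself was at 632, 462 and 768 CPM in CNTNAP2-203 OE and at 772, 723 and 721 CPM in control. Its groups overlapped (log2 fold change -0.25, adjusted p = 0.491). TRIB3, a pseudokinase induced by ATF4 and CHOP, was at 76.6, 52.0 and 89.4 CPM in CNTNAP2-203 OE and at 173, 191 and 179 CPM in control (log2 fold change -1.32, SE 0.187, adjusted p = 0.0252). NUPR1, a stress-induced chromatin protein, was at 27.8, 24.2 and 37.1 CPM in CNTNAP2-203 OE and at 84.2, 72.8 and 71.6 CPM in control (-1.36, SE 0.166, adjusted p = 0.0174). CEBPG, a partner of ATF4, was at 72.5, 60.8 and 62.7 CPM in CNTNAP2-203 OE and at 96.9, 103 and 93.3 CPM in control (-0.58, SE 0.105, adjusted p = 0.0472). In TRIB3, NUPR1 and CEBPG the groups were far apart. These genes belong to a response that amino acid shortage starts as well, and their falls were known when the lists were drawn up, so they add no independent evidence.

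In the other 9 lists none of the 138 tested genes passed, and the medians lay between -0.09 and 0.13. The 11 tested genes of the oligosaccharyltransferase, which transfers N-glycans, all had positive log2 fold changes between 0.01 and 0.35, led by OST4 at 63.5 ± 1.97 CPM in CNTNAP2-203 OE and 49.8 ± 5.86 CPM in control (adjusted p = 0.171). RPN2, another subunit, was at 530 ± 33.7 CPM in CNTNAP2-203 OE and 461 ± 17.5 CPM in control. Of the cytosolic ERAD extraction machinery, UFD1 was at 96.0 ± 10.7 CPM in CNTNAP2-203 OE and 64.8 ± 4.85 CPM in control (log2 fold change 0.57, adjusted p = 0.0625), and the ATPase VCP at 665 ± 17.5 and 526 ± 20.3 CPM (0.34, adjusted p = 0.113). Both were higher in each CNTNAP2-203 OE library than in each control. The ER-phagy receptors CCPG1 and CALCOCO1 averaged 30.3 ± 3.12 and 44.9 ± 7.0 CPM in CNTNAP2-203 OE, against 75.5 ± 28.7 and 67.9 ± 2.10 CPM in control (adjusted p = 0.0746 and 0.0706).

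Among further luminal folding genes, the collagen chaperone SERPINH1 was at 317 ± 12.9 CPM in CNTNAP2-203 OE and 236 ± 14.2 CPM in control (log2 fold change 0.43, adjusted p = 0.0766), and the prolyl isomerase FKBP9 at 85.5 ± 12 and 119 ± 4.76 CPM (-0.48, adjusted p = 0.107). In the translocon, which threads new proteins into the ER, the J protein SEC63 was at 141 ± 5.70 CPM in CNTNAP2-203 OE and 175 ± 7.96 CPM in control. SSR1, a translocon-associated subunit, was at 88.1, 84.1 and 88.5 CPM in CNTNAP2-203 OE and at 206, 152 and 101 CPM in control, with controls far apart from each other (-0.82, adjusted p = 0.149). The COPII GTPase SAR1A varied within CNTNAP2-203 OE, at 159, 62.6 and 161 CPM, against 57.7, 69.1 and 61.1 CPM in control (1.02, adjusted p = 0.225), and the cargo receptor LMAN1 was at 147 ± 16.5 CPM in CNTNAP2-203 OE and 178 ± 14.2 CPM in control. The remaining named genes did not pass either. They were the ER calcium-binding proteins SDF4 (0.32) and RCN2 (0.36), the IRE1 adaptor TRAF2 (0.28), the PERK substrate EIF2S1 (0.24), the glucosidase subunit GANAB (0.12) and the mannosidase MAN1C1 (0.63), given here as log2 fold changes.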

How the data were processed

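Total RNA of 6 CAL27 samples had its ribosomal RNA removed before library construction with a kit that keeps no strand, per the labels' protocols. Reads were trimmed with Trim Galore 0.4.4 and the genome build was hg38, per the submitters' processing notes. No label or file header names the aligner, the counter or the annotation. For control replicate 1 the reverse-read file was missing from the submission, per the labels, and they do not say if its counts used both reads. The authors deposited raw counts per gene, not normalized, and log2 values that are log2(FPKM + 1): under this offset, a gene's length worked out from its count and FPKM had a median CV over libraries of 0.24%, and under none of 3.279%.

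Counts were tested with edgeR 4.0.16 (R 4.3.3) by the robust quasi-likelihood test after filterByExpr (minimum count 10, 18786 genes left) and TMM scaling (a factor of 0.951 in CNTNAP2-203 OE replicate 3, otherwise 0.999 to 1.019), with group as the only term and Benjamini-Hochberg adjustment over all tested genes. All p-values are two-sided. Each SE was obtained from the size of the fitted change and the F statistic, as their ratio after taking the root of F. Alternatives used other scalings and filters, DESeq2 1.42.0, limma 3.58.1 and fits without 1 library. Symbols are those of the count table, except MARCHF6, listed there as 45357 and matched by identifier. Positions and exon overlaps are from GENCODE 29, and 22 of the 38 members share exon bases with another gene. The members and lists were chosen with earlier results of these data known. All members are named, and from each further list the genes past the threshold or else the 2 with the smallest p, with ATF4 added.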

Additional observations from a re-analysis of the deposited data

How the results depend on the processing

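Each of the 3 falls kept its sign under every alternative run. CLGN passed in 8 of 9 settings other than leaving out a library, and ERN1 and DNAJB9 each in 7, with adjusted p up to 0.0957, 0.107 and 0.126. Among the fits without 1 library all 3 passed only without CNTNAP2-203 OE replicate 3, and their adjusted p reached 0.135, 0.195 and 0.200. In these 6 fits the genes called higher were 8 to 310 and lower 6 to 235, members called higher 0 to 1 and lower 0 to 3, other ER genes called higher 0 to 2 and lower 0 to 4, and the median of the members -0.09 to 0.01. DESeq2 called 637 genes higher and 426 lower, with 3 members higher (SDF2L1, CALR and SYVN1) and 4 lower (with XBP1), and 5 and 11 other ER genes. Limma-trend on log2(FPKM + 1) called 84 genes higher and 1 member lower (CLGN). Without a filter 1 other ER gene was called higher. With the length trend removed, an alternative chosen after the data were seen, 283 genes were higher and 191 lower, with 2 members (SDF2L1 and CALR) and 1 other ER gene higher. The labels state no pairing of the libraries by replicate number. Correlations of same-numbered deviations were -0.082, 0.045 and -0.028, not each the highest of its library. With 3 libraries per group, they cannot settle whether same-numbered libraries share a batch. With a replicate block, 11 genes were higher and 6 lower, with 0 members and 0 other ER genes in either direction. Of members with values near 0, limma-trend turned SIL1 to -0.01 and ERP44 to -0.03, and removing the length trend turned HYOU1 and DNAJC10 to 0.04. The fits without 1 library gave -0.17 to 0.11 for HYOU1, -0.09 to 0.12 for SIL1, -0.05 to 0.14 for PDIA5, -0.06 to 0.14 for P4HB, -0.09 to 0.08 for ERP44, -0.05 to 0.43 for CANX, -0.03 to 0.14 for DERL1 and -0.17 to 0.02 for DERL2. The fits without 1 library also rest on fewer libraries. The causes of these differences were not tested.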
